A study of Mus musculus with 5 samples.

Results

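Genes of DNA replication and of mitosis were followed through amyloid-β (Aβ) and difluoromethylornithine (DFMO) treatment of primary mouse astrocyte cultures. The set held 40 genes, matched by symbol to a list of cell cycle genes, out of 18783 genes in the authors' deposited table. It comprised 16 replication members, used mainly from G1 through S phase, and 24 mitotic members, used mainly in G2 and M phase. All 40 had values in each group.

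The cultures came from C57BL/6 pups at P0-P1 and were harvested at 12 days in vitro (DIV 12), in medium with horse and fetal bovine serum. Control cultures (2 libraries) were naive. Aβ cultures (2 libraries) received 1 µM Aβ at DIV 7 for 5 days, and Aβ+DFMO cultures (1 library) received 1 µM Aβ together with 50 µM DFMO over the same days. DFMO inhibits ornithine decarboxylase (ODC1), the entry enzyme of polyamine synthesis, and the study's title gives its purpose as the effect of ODC1 inhibition on such astrocytes. No group received DFMO alone. Whether libraries of 1 group stem from different cultures is not in the labels, so the p-values measure the spread between these libraries, which may be technical.

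Dividing cells read these genes out in waves. E2F factors, held back by RB-family proteins until G1 cyclins and their kinases act, switch on the genes that license origins, unwind DNA and supply nucleotides. Later the DREAM complex gives way to B-MYB and FOXM1 at the promoters of mitotic genes, which often carry a CCAAT box and a cell cycle genes homology region (CHR). Many of the mitotic products are then removed as cells leave mitosis. In a mixed culture the transcripts of most such genes come mainly from the cells that are cycling. In such bulk RNA, more cycling cells and more RNA per cycling cell cannot be told apart. Astrocytes from newborn mice, which still divide in serum, are a common setting for these genes, and polyamines are known to be needed for cell proliferation.

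Motif matches of these kinds lie in many of the members' promoters, and a few stretches upstream of the start site are printed to show how the replication and mitotic ones differ. They are from RefSeq on build GRCm38.p6, 5′ to 3′ on the gene's strand, with motif matches in capitals. Depdc1a, Kif11 and Top2a are mitotic members that were higher with DFMO, and each stretch holds CCAAT boxes (CCAAT, or ATTGG on the other strand) and CHR elements (TTTGAA or TTCGAA, or TTCAAA on the other strand). Mcm6, Mcm5 and Cdc6 are replication members whose stretches hold E2F motifs and no CHR match. The stretches are Depdc1a at chr3:159495386-159495430 on the plus strand, Kif11 at chr19:37376329-37376376 on the plus strand, Top2a at chr11:99024199-99024398 on the minus strand, Mcm6 at chr1:128359707-128359823 on the minus strand, Mcm5 at chr8:75109348-75109499 on the plus strand and Cdc6 at chr11:98908005-98908028 on the plus strand.
Depdc1a: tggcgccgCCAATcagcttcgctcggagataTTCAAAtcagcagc
Kif11: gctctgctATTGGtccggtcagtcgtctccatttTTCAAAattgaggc
Top2a: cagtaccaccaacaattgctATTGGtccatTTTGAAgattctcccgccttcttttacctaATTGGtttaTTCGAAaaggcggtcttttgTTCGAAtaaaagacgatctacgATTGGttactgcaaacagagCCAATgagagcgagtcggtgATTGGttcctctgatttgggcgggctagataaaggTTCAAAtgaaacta
Mcm6: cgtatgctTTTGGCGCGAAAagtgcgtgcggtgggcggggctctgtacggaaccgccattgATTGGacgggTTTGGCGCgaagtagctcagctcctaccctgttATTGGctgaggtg
Mcm5: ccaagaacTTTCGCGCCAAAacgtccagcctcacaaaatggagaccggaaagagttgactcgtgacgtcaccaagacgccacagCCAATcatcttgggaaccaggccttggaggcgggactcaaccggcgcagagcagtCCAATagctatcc
Cdc6: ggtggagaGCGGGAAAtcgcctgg

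Promoters of 250 bases before to 50 after the start site were listed for 32 of the 40 members, and the motifs were searched there on both strands. Mcm4, Gins2, Ccne2, Ccnd1, Ccna2, Kif20a, Aurkb and Tpx2 were not in the promoter table. Of 20 mitotic promoters 16 (80%) held a CHR match, against 2 of 12 replication promoters (16.7%) and 16.7% of the 12347 promoters of genes in the expression table. A CCAAT box was found in 18 of 20 mitotic promoters (90%), 8 of 12 replication promoters (66.7%) and 42.9% of the expression table's promoters. An E2F motif (TTTCCCGC, TTTGGCGC, TTTCGCGC or TTTGCCGC, where matches on opposite strands can overlap, as in Mcm5 and Mcm6) was found in 6 of 12 replication promoters (50%), 1 of 20 mitotic promoters (5%) and 4.37% of the expression table's promoters. Over all 27025 genes of the promoter table, 21.7% held a CHR match, 41.1% a CCAAT box and 2.6% an E2F motif. Birc5 and Nusap1 were the mitotic members with neither a CHR nor a CCAAT match in this window. Of the 8 mitotic members that rose with DFMO and were in the table, 6 held a CHR match and 8 a CCAAT box, beside 16 and 18 of all 20. Whether a match goes with the rise was not tested. A match describes the letters and does not show binding.

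The libraries differed widely in depth. Control libraries had 49020833 and 49676004 reads and Aβ libraries 46886111 and 105544237, whereas the Aβ+DFMO library had 4825677, which is 9.72 to 21.9 times fewer. Per-gene values are the authors' group means, so the values of single libraries, and whether libraries of different groups overlap, are not known here. In the Aβ+DFMO library 1 read was worth about 7.47 units of the deposited mean, which puts an estimated 34.9 reads behind Ccne1 and 5026 behind Ccnd1, the ends of the members' range. Of the 40 members 31 rested on at least 100 such reads and 3 on fewer than 50, while 28.4% of all genes rested on fewer than 10. The implied standard error given below is the size of a log2 ratio divided by the normal deviate of its two-sided DESeq2 p-value, and for the lone Aβ+DFMO library it takes the spread from the other libraries.

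The untreated cultures expressed the whole programme. The Control means of the authors' deposited table were divided here by transcript length to compare genes. Per kb, those of the replication members ran from 52.8 for Cdc6, which loads the helicase onto origins, to 9414 for Ccnd1, the cyclin D1 gene. Pcna, the sliding clamp of the replication fork, came next at 2789 per kb, followed by Rrm2, the small subunit of ribonucleotide reductase, at 1266. Mitotic members spanned a narrower range. Their Control means per kb, from the same division, ran from 88.7 for Depdc1a, a mitotic progression gene, to 1026 for Top2a, the topoisomerase that untangles sister chromatids. Prc1, which bundles the microtubules of the central spindle, and Ccna2 (cyclin A2) stood close below it, at 996 and 878 per kb.

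**Figure D1:**
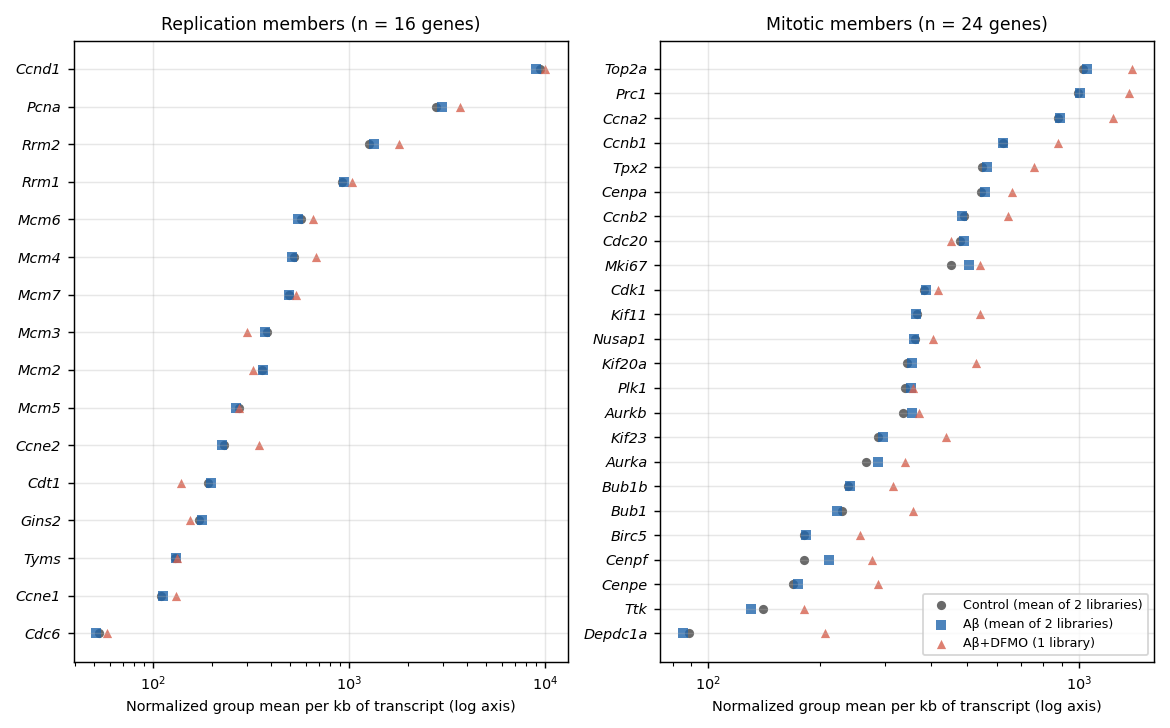
Normalized group mean per kb of transcript on a log axis for the 16 replication and 24 mitotic members; circles are Control and squares Aβ (means of 2 libraries each), triangles Aβ+DFMO (1 library). Circles and squares nearly coincide for most genes, and triangles lie to the right of the squares for 35 of the 40 members, Depdc1a the farthest (2.42-fold).

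The first comparison asked what Aβ changed. None of the 40 members passed an adjusted p of 0.05 in Aβ against Control in the authors' deposited table, where 54 of 18783 genes (0.287%) passed. At an unadjusted p under 0.05, 0 members and 324 genes passed by the authors' DESeq2, the only test of these values. The median log2 ratio was 0.0085 for replication and 0.0285 for mitotic members in the authors' deposited table, beside 0.0024 over all genes. Of the replication members 8 lay above 0 and 8 below, and of the mitotic members 17 above and 7 below.

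Several proliferation markers illustrate how close the means were. Mki67, whose protein coats mitotic chromosomes and marks cycling cells, had a Control mean of 4551 and an Aβ mean of 5090 in the authors' deposited table (log2 ratio of 0.16, implied standard error 0.382). Top2a had 5357 and 5479 in the authors' deposited table (0.03, implied standard error 0.107). For Ccnb1, the cyclin B1 gene that drives entry into mitosis, the means in the authors' deposited table were 1554 and 1550 (−0.0038, implied standard error 0.106). Pcna, with 4233 and 4510 in the authors' deposited table, had the smallest p of the members (0.09, p = 0.259). The ratios of Mki67, Top2a and Ccnb1 were smaller than their implied errors, and that of Pcna was larger than its error of 0.0810. Cenpf, a large kinetochore protein, had the largest ratio, 2017 against 2355 in the authors' deposited table (0.22, implied standard error 0.275).

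Without Mki67 and Cenpf, the 95% intervals of the other 38 log2 ratios lay between −0.47 and 0.46, and all 38 held 0. A change of 0.5 or more on the log2 scale in either direction thus lay outside the interval of each of those 38 members. Mki67 and Cenpf stood apart in their error. Among 3566 genes with both means at or above 2000, whose median implied standard error was 0.0896, only 12 had a larger one than Mki67 and 38 a larger one than Cenpf. The deposited p-values of this comparison also lay high as a whole: 76.6% of all genes had a p over 0.5 and 1.72% a p under 0.05.

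The second comparison asked what DFMO added to Aβ changed, and it shares the Aβ libraries with the first. Of the mitotic members, 11 of 24 (45.8%) rose and none fell, where 4% of all genes rose and 5.18% fell in the authors' deposited table. Among genes with an Aβ mean of 200 or more, as all 40 members have, 6.15% rose. Of the replication members, 2 of 16 (12.5%) rose and none fell. The ratios of the 13 ran from 0.41 for Top2a (1.33-fold) to 1.28 for Depdc1a (2.42-fold) on the log2 scale in the authors' deposited table. The median log2 ratio was 0.42 for mitotic and 0.15 for replication members in the authors' deposited table, beside 0.01 over all genes. Above 0 lay 23 of 24 mitotic members and 12 of 16 replication members, against 50.7% of all genes. The difference between the replication and the mitotic members was not itself tested. None of the 13 passed once a trend with the GC content of transcripts was taken out, as described after the members.

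**Figure D2:**
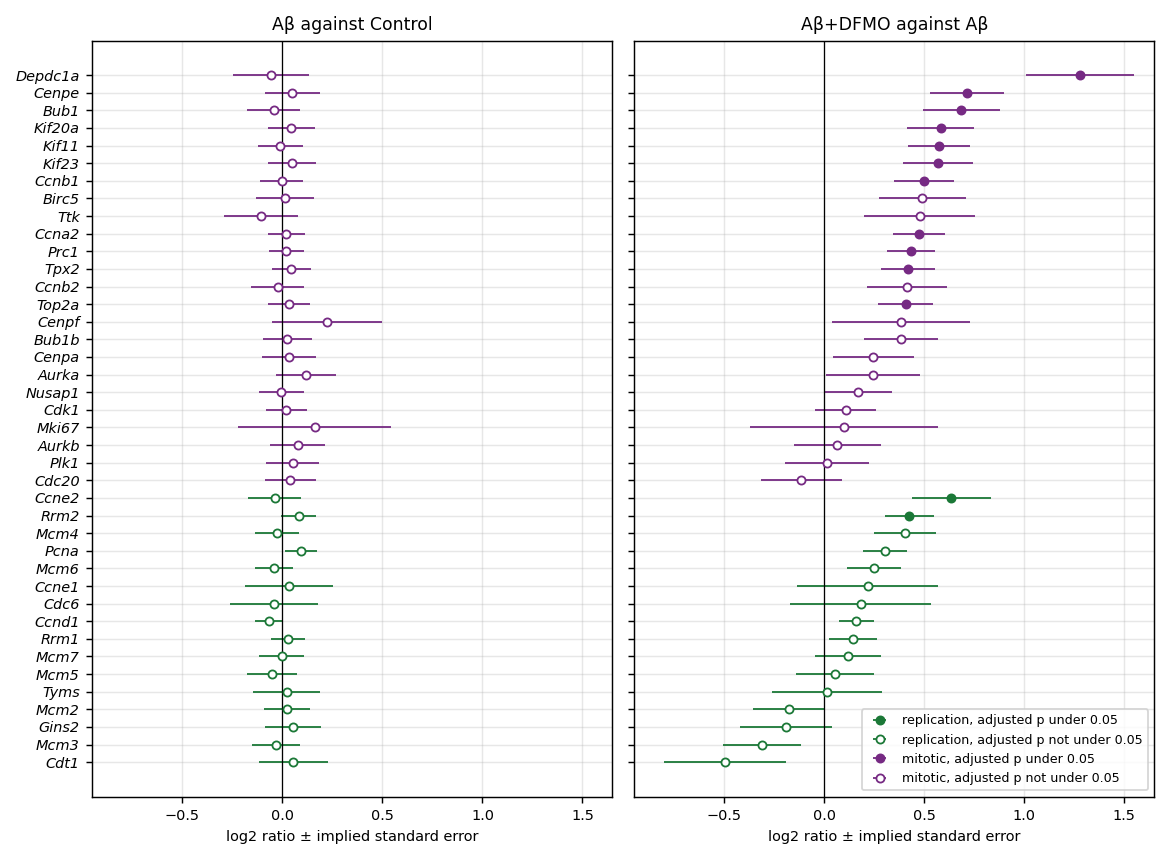
Log2 ratios of the 40 members (± implied standard error) in Aβ against Control (left) and Aβ+DFMO against Aβ (right), green for replication and purple for mitotic members, filled where the authors' adjusted p was under 0.05. On the left all points are open and lie between −0.11 and 0.22; on the right 13 points are filled, all above 0.

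Of 5 spindle and division genes 4 rose. Kif11, the kinesin that pushes spindle poles apart, had means of 1764 in Control, 1750 in Aβ and 2601 with DFMO added in the authors' deposited table (log2 ratio to Aβ 0.57, implied standard error 0.155, adjusted p = 0.00594). Kif20a, a kinesin of the central spindle, had 1259, 1299 and 1943 in the authors' deposited table (0.58, implied standard error 0.166, adjusted p = 0.00999). For Kif23, a subunit of centralspindlin that is needed for cytokinesis, the means in the authors' deposited table were 972, 1005 and 1490 (0.57, implied standard error 0.176, adjusted p = 0.0197). For each of these 3 kinesins the Control and Aβ means differed by less than the implied error, and the Aβ+DFMO value was the highest. Prc1, the microtubule bundler of the central spindle, had 3014, 3056 and 4126 in the authors' deposited table (0.43, implied standard error 0.122, adjusted p = 0.0084). Nusap1, a spindle microtubule protein, did not pass, at 1274, 1268 and 1423 in the authors' deposited table (0.17, implied standard error 0.169).

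Among kinetochore and checkpoint genes 2 of 7 rose. Cenpe, the kinetochore motor that brings chromosomes to the plate, had means of 1335 (Control), 1382 (Aβ) and 2265 (Aβ+DFMO) by the authors' deposited table (log2 ratio to Aβ 0.71, implied standard error 0.184, adjusted p = 0.00354). Bub1, a checkpoint kinase, had 784, 761 and 1222 in the authors' deposited table (0.68, implied standard error 0.192, adjusted p = 0.00822). Both were more than 1.6-fold the Aβ mean, the next largest ratios after Depdc1a. The checkpoint kinase gene Ttk (0.48), Bub1b (0.38) and Cenpf (0.38) lay above 0 in the authors' deposited table without passing, with adjusted p-values of 0.338, 0.206 and 0.609. Cenpa, the centromeric histone, had 799, 817 and 969 in the authors' deposited table (0.25, adjusted p = 0.565). Cdc20, the activator of the anaphase-promoting complex, was the one mitotic member below 0, with 855, 879 and 812 in the authors' deposited table (−0.11, 95% interval −0.51 to 0.28).

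Of the mitotic cyclins and their kinase, 2 of 4 rose. Ccna2 had means of 2604, 2638 and 3662 in the authors' deposited table (log2 ratio to Aβ 0.47, implied standard error 0.128, adjusted p = 0.00577), and Ccnb1 1554, 1550 and 2190 (0.50, implied standard error 0.152, adjusted p = 0.0171). Ccnb2, the cyclin B2 gene, had 751, 739 and 984 in the authors' deposited table (0.41, implied standard error 0.200, adjusted p = 0.207), so its ratio was like that of Ccnb1 with a wider error. Cdk1, the kinase all of them bind, had 1672, 1696 and 1826 in the authors' deposited table (0.11, 95% interval −0.19 to 0.41). The 3 cyclin genes had larger ratios than the gene of the kinase they activate, and that difference was not tested.

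Mitotic kinases and their partners gave 1 rise among 5. Tpx2, which activates Aurora A on spindle microtubules, had means of 2399, 2472 and 3301 in the authors' deposited table (log2 ratio to Aβ 0.42, implied standard error 0.135, adjusted p = 0.0287). Birc5, the survivin gene of the chromosomal passenger complex, had 605, 611 and 857 in the authors' deposited table (0.49, implied standard error 0.217, adjusted p = 0.151). The kinase genes themselves stood nearer to 0 as deposited. With the GC trend taken out, as described after the members, Aurka lay at 0.34, Aurkb at 0.21 and Plk1 at 0.35. Tpx2 then lay at 0.35 and Birc5 at 0.41. Aurka lay at 0.24, Aurkb at 0.07 and Plk1 at 0.01 on the log2 scale in the authors' deposited table, with adjusted p-values of 0.642, 0.927 and 0.990. Their 95% intervals reached 0.70, 0.50 and 0.42, so ratios as large as that of Tpx2 lay within them.

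Of the remaining mitotic members, Depdc1a and Top2a rose and Mki67 did not pass. Depdc1a had means of 295, 283 and 687 in the authors' deposited table (log2 ratio to Aβ 1.28, implied standard error 0.269, adjusted p = 0.000162), and an estimated 92.0 reads lay behind the last value. Top2a had 5357, 5479 and 7266 in the authors' deposited table (0.41, implied standard error 0.138, adjusted p = 0.0381). Mki67, the usual marker of cycling cells, had 4551, 5090 and 5455 in the authors' deposited table (0.10, 95% interval −0.82 to 1.02), an interval too wide to place it with or apart from the others.

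Replication members were more mixed. Ccne2, the cyclin E2 gene that acts at the entry into S phase, had means of 690, 671 and 1042 in the authors' deposited table (log2 ratio to Aβ 0.63, implied standard error 0.199, adjusted p = 0.0217). Rrm2 had 2777, 2937 and 3942 in the authors' deposited table (0.42, implied standard error 0.122, adjusted p = 0.0104). These were the replication members that passed. Ccne1, the cyclin E1 gene, did not, with 220, 225 and 261 in the authors' deposited table (0.22, 95% interval −0.48 to 0.91) from an estimated 34.9 reads. Ccnd1 had 35208, 33579 and 37516 in the authors' deposited table (0.16, 95% interval −0.01 to 0.33), the tightest interval of the 40.

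The clamp and nucleotide supply genes other than Rrm2 did not pass. Pcna had means of 4233, 4510 and 5558 in the authors' deposited table (log2 ratio to Aβ 0.30, implied standard error 0.111, adjusted p = 0.0636). Rrm1, the large subunit whose product pairs with that of Rrm2, had 3693, 3764 and 4151 in the authors' deposited table (0.14, 95% interval −0.09 to 0.38). Tyms, thymidylate synthase, had 407, 413 and 417 in the authors' deposited table (0.01, 95% interval −0.53 to 0.56).

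None of the 7 genes of the replicative helicase passed, and they lay on both sides of 0. The MCM proteins form 1 ring in equal parts, yet their log2 ratios in the authors' deposited table ran from −0.31 for Mcm3 to 0.40 for Mcm4. Mcm4 had means of 1875, 1843 and 2437 in the authors' deposited table (implied standard error 0.154, adjusted p = 0.0772). Mcm3 had 1152, 1128 and 909 in the authors' deposited table (implied standard error 0.194, adjusted p = 0.380). Between them lay Mcm6 (0.25), Mcm7 (0.12), Mcm5 (0.05) and Mcm2 (−0.18) in the authors' deposited table. Gins2, a subunit of the GINS complex that travels with the ring, stood at −0.19. The transcripts of Mcm4 and Mcm6 have a GC content of 45.5% and 47.3%, and those of Mcm3 and Mcm2 52.5% and 55.5%. Of the origin licensing genes, Cdc6 had 244, 236 and 268 in the authors' deposited table (0.18, 95% interval −0.51 to 0.87). Cdt1, its partner in loading the helicase, had 415, 431 and 306 in the authors' deposited table (−0.50, 95% interval −1.09 to 0.10), the lowest ratio of the 40 and the highest GC content, 58.8%.

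The authors' deposited table tests Aβ+DFMO against Aβ and not against Control. As ratios of its group means, the median log2 ratio to Control was 0.45 for mitotic members, 0.13 for replication members and 0.02 for all genes, with 35 of the 40 members above 0. Both sets of ratios use the same Aβ+DFMO library.

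The log2 ratio of Aβ+DFMO to Aβ followed the GC content of the transcript. Spearman's rho was −0.71 over the 11660 genes whose Aβ mean reached 200; these genes share the same libraries and are no independent replicates. It was −0.75 over the 40 members, −0.77 within the replication and −0.63 within the mitotic members, and 0.12 over the 11660 genes in Aβ against Control. Mitotic members have a median GC content of 46.4%, replication members 50.2% and all genes 49.5%. The 13 members that rose lay between 35.3% and 48.4%, with a median of 44.2%, and the 27 others had a median of 49.4%. Depdc1a and Ccne2, the members with the largest rise of their group, also have the lowest GC content of their group, 35.3% and 36.3%.

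**Figure D3:**
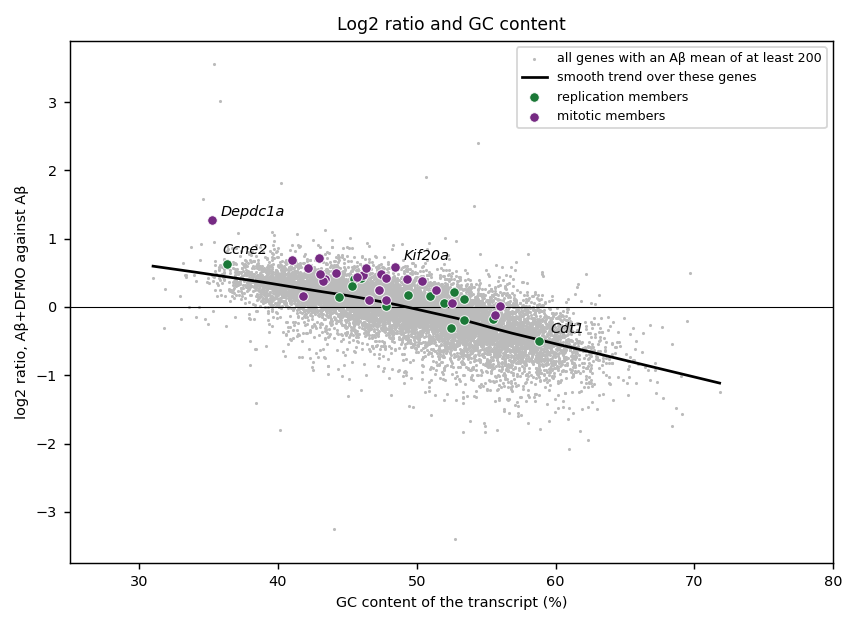
Log2 ratio of Aβ+DFMO to Aβ against the GC content of the transcript; grey points are the 11660 genes whose Aβ mean reached 200, the black line is their smooth trend, and green and purple points are replication and mitotic members. The trend falls from left to right, and most mitotic members lie above the line, Depdc1a and Kif20a well above it and Nusap1 below.

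With that trend taken out of every gene's ratio, 0 of the 40 members passed an adjusted p of 0.05, where 0.829% of 18459 genes rose and 0.731% fell. At an unadjusted p under 0.05 under this setting, 12 of 24 mitotic members (50%) and 2 of 16 replication members (12.5%) were higher and none lower. Of all genes 4.6% were higher, and of those with an Aβ mean of 200 or more 6.39%. The direction held for each of the 13 called members, whose ratios then lay between 0.19 and 0.80. The median was 0.33 for mitotic and 0.17 for replication members, beside 0.02 over all genes. Of the mitotic members 22 of 24 and of the replication members 12 of 16 lay above 0, against 52.6% of all genes. With a trend on transcript length taken out as well, an analysis added after the data were seen, 0 members passed where 0.775% of all genes rose, and the medians were 0.31 and 0.17.

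Single members moved by different amounts. Kif20a, at a GC content of 48.4%, kept nearly its whole ratio, 0.54 against 0.58, and came nearest to passing (adjusted p = 0.0632). Depdc1a went from 1.28 to 0.80 (adjusted p = 0.119) and Ccne2 from 0.63 to 0.19 (adjusted p = 0.936). Top2a went from 0.41 to 0.19 (adjusted p = 0.828), and Bub1 from 0.68 to 0.39 (adjusted p = 0.508). Members of high GC content moved upward instead. Plk1 went from 0.01 to 0.35, Cdc20 from −0.11 to 0.20, Mcm7 from 0.12 to 0.31, Mcm2 from −0.18 to 0.13 and Cdt1 from −0.50 to −0.02. None of these 5 passed before or after. The MCM genes other than Mcm3 (−0.17) were then all above 0, between 0.13 and 0.31. Whether the trend arose in the cells or in the preparation of this library was not tested.

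**Figure D4:**
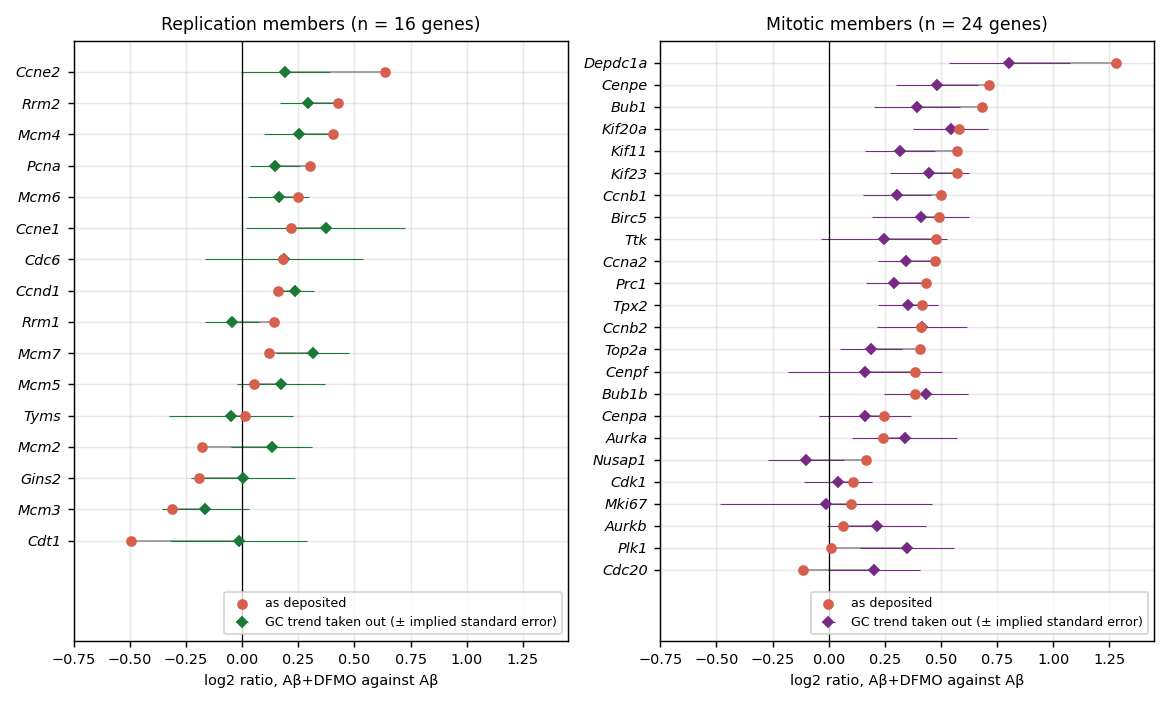
Log2 ratios of Aβ+DFMO to Aβ as deposited (red circles) and with the GC trend taken out (diamonds ± implied standard error), joined by a line for each member. Diamonds lie left of the circles for most members that had risen, such as Depdc1a (1.28 to 0.80), and right of them for Cdt1, Mcm2, Plk1 and Cdc20.

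Other genes of the same pathways were counted in the same way. Of all genes 4% rose and 5.18% fell in Aβ+DFMO against Aβ, and 0.829% and 0.731% with the GC trend taken out. Of 90 other mitotic genes 23 (25.6%) rose and none fell in Aβ+DFMO against Aβ, with a median log2 ratio of 0.33 in the authors' deposited table. The 4 with the largest rises were Cenpk (0.89), a constitutive centromere subunit, Sgo1 (0.88), which protects centromeric cohesion, Cks2 (0.87), a CDK-binding subunit, and Esco2 (0.87), a cohesin acetyltransferase, in the authors' deposited table. After removal of the GC trend 2 of the 90 passed, both named after their values were seen. Anln, the anillin gene of the contractile ring, lay at 0.52 (adjusted p = 0.00356), and Spc25, of the NDC80 complex, at 0.57 (adjusted p = 0.0216). In the authors' deposited table Anln had means of 2902, 2818 and 4501 and Spc25 1130, 1222 and 2020. The median of the 90 was then 0.24, beside 0.02 over all genes, and 76 of them lay above 0, against 52.6% of all genes.

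Of 56 other replication genes 4 (7.14%) rose and none fell, a share near that of all genes (4%) and of genes with an Aβ mean of 200 or more (6.15%), with a median log2 ratio of 0.16 in the authors' deposited table. The origin recognition genes Orc3 (0.53) and Orc4 (0.63), the origin-firing kinase gene Cdc7 (0.89) and Slbp (0.59), which binds histone mRNA, were those that rose in the authors' deposited table. After removal of the GC trend none of the 56 passed by the implied errors, 3 (5.36%) were higher at an unadjusted p under 0.05 against 4.6% of all genes, and the median was 0.16. In Aβ against Control, none of the 90 or 56 passed in the authors' deposited table.

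Regulators of the programme were also measured. Of 22 transcription regulators, 3 (13.6%) rose and none fell in Aβ+DFMO against Aβ, with 14 above 0 and 8 below. Mybl1, which encodes A-MYB, a relative of B-MYB, had means of 3569, 3415 and 6230 in the authors' deposited table (log2 ratio to Aβ 0.87, implied standard error 0.112), and passed with the GC trend taken out (0.45, adjusted p = 0.00839). Tfdp2, an E2F partner, lay at 0.42 and Rbbp4, a DREAM and chromatin subunit, at 0.32 in the authors' deposited table, and without the GC trend neither passed (0.26 and 0.12). The E2F and RB-family genes, the LIN genes of the DREAM complex, Mybl2 and Foxm1 did not pass. They are given after their values were seen, and lay on both sides of 0. In the authors' deposited table, E2f4 lay at −0.12, E2f5 at 0.36, E2f6 at 0.19, E2f7 at 0.08 and E2f8 at 0.01. Rb1 lay there at 0.17, Rbl1 at 0.42 and Rbl2 at −0.10. Lin9 lay at 0.34, Lin37 at −0.84, Lin52 at 0.40 and Lin54 at 0.38 in the authors' deposited table. In the authors' deposited table, Mybl2, the B-MYB gene, lay at −0.46 (adjusted p = 0.631) and Foxm1 at −0.0020 (adjusted p = 0.998). E2f1 lay at −0.60 (adjusted p = 0.208) and E2f2 at −1.82 (adjusted p = 0.160) in the authors' deposited table, the latter from an estimated 3.99 reads, and E2f3 at 0.28 (adjusted p = 0.363). The transcripts of Mybl2, E2f1 and E2f2 have GC contents of 56.3%, 58.3% and 56.6%. With the GC trend taken out Mybl2 lay at −0.11, Foxm1 at 0.26, E2f1 at −0.14 and E2f2 at −1.45, and none of them passed. No regulator passed in Aβ against Control.

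Among G1 cyclins and kinases outside the 40, Ccnd3 fell by 0.48 with DFMO by the authors' deposited table (adjusted p = 0.0148), and lay at −0.02 with the GC trend taken out. In the authors' deposited table, Ccnd2 (0.13), Cdk4 (−0.05) and Cdk6 (0.08) did not pass. Of 8 CDK inhibitor genes, Cdkn1b, the p27 gene, rose by 0.30 in the authors' deposited table (adjusted p = 0.0414) and stood at 0.07 with the GC trend taken out. Cdkn1a, the p21 gene that p53 induces, had means of 5173, 5304 and 4545 in the authors' deposited table (−0.22, adjusted p = 0.256). In the authors' deposited table, the INK4 genes Cdkn2a (0.12), Cdkn2b (−0.27), Cdkn2c (0.10) and Cdkn2d (−0.33), with Cdkn1c (−0.02) and Cdkn3 (0.38), did not pass. No gene of these lists passed in Aβ against Control.

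**Figure D5:**
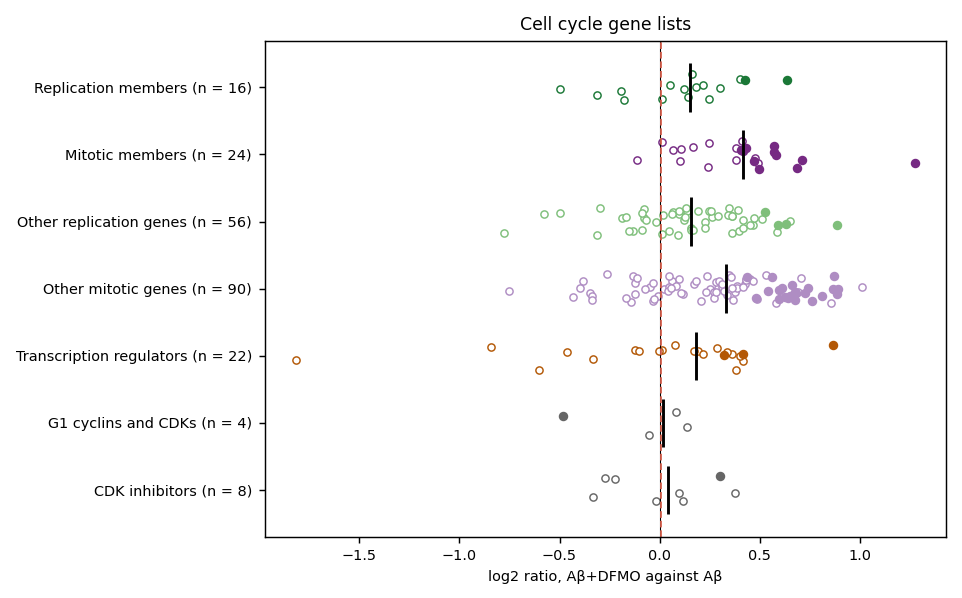
Log2 ratios of Aβ+DFMO to Aβ for the members and the other cell cycle lists; each point is a gene, filled where the authors' adjusted p was under 0.05, black bars are list medians and the dashed red line is the median of all genes. The mitotic members and other mitotic genes have the medians farthest from 0, 0.42 and 0.33.

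The authors' deposited pathway table, which gives 1 ratio and p for each of 242 gene sets by a test not given in the sources used here, lists DNA replication with a ratio of 1.01 for Aβ against Control (adjusted p = 0.907). For Aβ+DFMO against Aβ its ratio in the authors' deposited table was 1.10 (adjusted p = 0.659). The p53 signaling set had 0.995 (adjusted p = 0.902) and 1.18 (adjusted p = 0.278) in the authors' deposited table. Neither set passed in either comparison. The share of the 242 sets that passed is not given here, so how these sets stand among the others cannot be read from these values.

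Cell type markers moved in the same library as the mitotic genes. All 7 astrocyte markers were measured, from S100b with means of 457, 471 and 343 to Gfap with 57209, 57495 and 41383 in the authors' deposited table. Their summed mean was 139483 in Control, 139751 in Aβ and 113663 in Aβ+DFMO, and 2 of the 7 fell in Aβ+DFMO. With the GC trend taken out all 7 lay below 0 and 2 passed as lower. Of 7 oligodendrocyte lineage markers 5 fell, with summed means of 25256, 24643 and 13453, and 3 passed as lower without the GC trend. Of 7 microglial markers 3 fell in Aβ against Control, where no member passed, and none passed in Aβ+DFMO against Aβ (summed means 9604, 5121 and 4275). Of 5 fibroblast and mural markers, Acta2 rose with DFMO by 0.28 in the authors' deposited table. The other 4 lay below 0 as deposited without passing, and the median of the 5 was −0.13. After removal of the GC trend 3 of the 5 lay above 0 and 2 below, and their median was 0.15, so the lean of these markers depended on that trend. The summed means of the 5 fibroblast and mural markers were 75706, 77758 and 90820, of which Acta2 made up 65706, 66644 and 81013. Of 3 ependymal markers 1 fell (4523, 4434 and 2333), as did 1 of the 4 measured neuronal markers (12921, 12589 and 12818). The 2 measured endothelial markers did not pass (178, 200 and 119), and Cdh5 was near the worth of 1 read in Aβ+DFMO, as was the ependymal Tmem212. Foxj1 made up 4489, 4396 and 2303 of the ependymal sums in the authors' deposited table. Map2 made up 10827, 10612 and 11536 of the neuronal sums, while Tubb3 had 1960, 1827 and 1066 in the authors' deposited table. No measured marker was listed at 0. The part of a changed cell mix, of depth or of this single library in the members' ratios was not tested.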

How the data were processed

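Poly-A RNA was sequenced as 2x75 paired reads, and the submitters' processing notes name STAR 2.7.3a, Partek, DESeq2, FastQC and the builds mm10 and GRCm39, without their roles. Per the file headers, the authors deposited a normalized signal per gene as group least-squares means, log2 ratios of these means, p-values and step-up adjusted p-values. They also deposited a ratio and p-value per gene set and the total reads per library. The log2 ratios equalled those of the means, and the adjusted p-values a Benjamini-Hochberg adjustment over 18783 genes.

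Nothing was refitted: calls are the authors' DESeq2 adjusted p under 0.05. Implied standard errors assume a Wald test. Transcript GC content and length came from GENCODE M21 (GRCm38; longest protein-coding transcript, otherwise the longest), matched for 18459 genes (98.3%). A lowess trend (share 0.3, statsmodels 0.14.6) fitted over 11660 genes was subtracted, z was recomputed with the implied error, and p-values were re-adjusted. The steps were tested on simulated data. The worth of a read was read from 7208 low values, 81.7% of them whole within 0.05 read. Other settings were thresholds of 0.1 and 0.01, a mean of at least 200, at least 10 estimated reads, a pseudocount of 50, and centring.

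All 40 members are named; of each other list, every called gene where at most 8 were called and otherwise the 4 largest rises and falls, all G1 cyclins, CDKs and CDK inhibitors, and at most 2 markers a type. Members and lists were chosen with earlier results of these data known. Pecam1, Cldn5 and Rbfox3 were not analysed here.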

Additional observations from a re-analysis of the deposited data

How the results depend on the processing

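No member passed in Aβ against Control under any setting run, and no member fell in either comparison. In Aβ+DFMO against Aβ, 4 replication members rose at a threshold of 0.1 and 0 at 0.01, and 7 mitotic members rose at 0.01. With the GC trend taken out, and with the length trend taken out as well (added after the data were seen), 0 replication and 0 mitotic members passed. There the subtracted trend and the re-adjustment of p-values act together, and their parts were not separated. Centring changed no member's direction or call, the pseudocount, run without a test, changed no direction, and a mean of at least 200 or at least 10 estimated reads gave 3 replication and 11 mitotic rises.

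Some ratios, none called, changed sign without the GC trend, and without GC and length trends. In Aβ against Control these were Ccne2 (0.0061 and 0.012), Kif11 (0.0034 and 0.021), Nusap1 (0.010 and 0.021) and, in the second setting only, Depdc1a (0.0024). In Aβ+DFMO against Aβ they were Mcm2 (0.132 and 0.133), Rrm1 (−0.046 and −0.048), Tyms (−0.051 and −0.053), Gins2 (0.0040 and 0.0028), Cdc20 (0.202 and 0.168), Nusap1 (−0.101 and −0.100) and, in the first setting only, Mki67 (−0.012). As deposited, the log2 ratios of these members to Aβ ran from −0.19 for Gins2 to 0.17 for Nusap1.

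No paired analysis was possible because the files give group means and no value per library and gene; leaving out each library was not run for the same reason. The depth of the Aβ+DFMO library limits its ratios, and with 1 library that group has no spread of its own.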
